A study of Mus musculus with 2 samples.

Results

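These results describe control islet endocrine cells whose RNA carried 2 or more of the 4 islet hormones glucagon (Gcg), somatostatin (Sst), pancreatic polypeptide (Ppy) and insulin (Ins1 and Ins2 together). A cell barcode was kept with at least 1000 unique molecular identifiers (UMIs, counts of distinct captured RNA molecules), at least 500 detected genes and at most 15% mitochondrial UMIs. It was a member when 2 or more of the hormones each took at least 5% of its UMIs. The control library held 4219 barcodes past the filter, of which 710 were members (16.8%, exact 95% interval 15.7% to 18.0%), 3303 had exactly 1 hormone at this level and 206 had none. The series as a whole held 12450 barcodes past the filter.

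The study compared islet cells of Isl1CKO mice, Neurod1 Cre/+; Isl1f/f, in which the LIM-homeodomain transcription factor Isl1 is deleted where Neurod1-driven Cre acts, with cells of control mice, Neurod1 Cre/+; Isl1f/+. Neurod1 is a transcription factor of endocrine cells, and the controls carried the Cre allele and 1 floxed Isl1 allele as well. Mice were 1 month old, cells of 3 animals per genotype were pooled, and cells were sorted for the red reporter tdTomato from islets dispersed in the presence of the transcription blocker actinomycin D. Each genotype gave 1 library with the 10x 3′ kit, version 3.1, so barcodes are not replicates, animals cannot be told apart, and no test was made; all intervals cover counting error only.

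Endocrine cells of the islet are usually sorted into classes by their main hormone: alpha cells make glucagon, beta cells insulin, delta cells somatostatin and gamma (PP) cells pancreatic polypeptide. Glucagon raises and insulin lowers blood glucose, and somatostatin restrains the release of both. Peptide YY (Pyy) is a close relative of pancreatic polypeptide encoded beside it on the same chromosome, and in mouse islets it is made by several of these classes. Irx1 and Irx2 are homeodomain factors of alpha cells, and Hhex is required for delta cells in the mouse. In droplet sequencing 2 cells caught in the same droplet also give a barcode with 2 hormones, so the UMI number, a doublet caller and transcripts of both sexes were read for each combination.

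The Isl1CKO library held 86086781 UMIs over all its barcodes and the control library 48685758. The labels give the control cells as male, whereas 973 control barcodes past the filter carried Xist, the long noncoding RNA of the inactive X, and no UMI of 4 Y-linked genes, 1738 carried Y-linked UMIs and no Xist, and 130 carried both. Members made up 13.8% of the 973 barcodes and 16.9% of the 1738. Of the 710 members 2 had a barcode sequence that also passed the filter in the Isl1CKO library, as did 8 of the 4219 control barcodes. The defining markers were present by the rule, and tdTomato, the sorted reporter, was within 2-fold of each matching single-hormone class in all 3 pair classes. In the Isl1CKO library 1 of 8231 barcodes had 2 hormones at the limit (0.0121%, interval 0.000308% to 0.0677%), in Sst with Ppy, and 7745 had none of the 4 hormones there.

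Most members paired somatostatin with pancreatic polypeptide. Of the 710, 439 had Sst with Ppy (61.8%, interval 58.1% to 65.4%), 154 had Gcg with Ppy (21.7%, 18.7% to 24.9%) and 71 had Gcg with Sst (10.0%, 7.89% to 12.4%). There were 33 members with insulin, of which 18 were Gcg with insulin, 5 Ppy with insulin and 3 Sst with insulin. Members with 3 or more hormones numbered 20, and 13 of these had Gcg, Sst and Ppy. Ppy was thus part of 617 of the 710 combinations, Sst of 533 and Gcg of 259. The share and the order depend on the limit: at 2% of UMIs 32.5% of control barcodes had 2 or more hormones, and at 10% 2.58%, of which 65.1% were Gcg with Ppy and 22.9% Sst with Ppy.

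Read from each hormone, Ppy accompanied Sst far more often than it accompanied Gcg. Ppy reached 5% in 458 of 1266 barcodes with Sst at 5% (36.2%, interval 33.5% to 38.9%) and in 169 of 2110 with Gcg at 5% (8.01%, 6.89% to 9.25%). Of 1131 barcodes with Ppy at 5%, 40.5% had Sst and 14.9% had Gcg. Insulin reached the limit in 0.995% of the Gcg, 0.790% of the Sst and 0.973% of the Ppy barcodes. The 3303 barcodes with 1 hormone were 1851 with Gcg only, 733 with Sst only, 514 with Ppy only and 205 with insulin only.

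**Figure D1:**
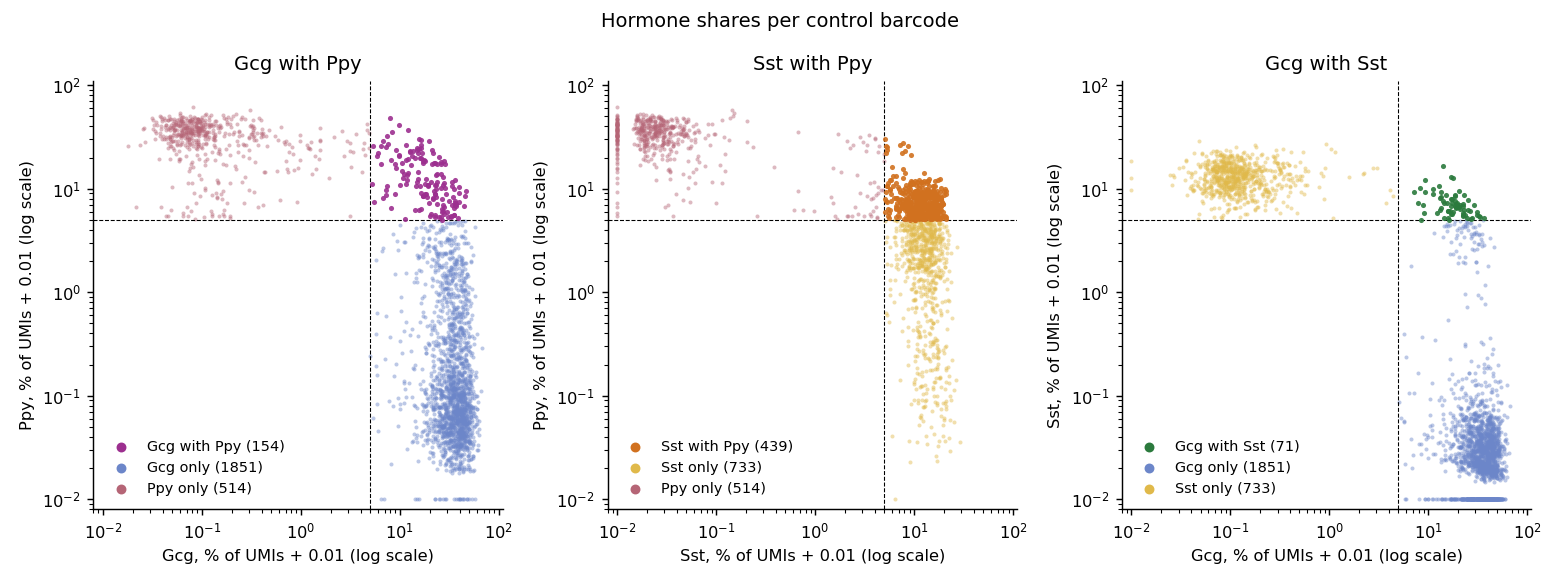
Share of UMIs of the 2 hormones of each pair, 1 point per control barcode, on log axes with 0.01 added; dashed lines mark the 5% limit, and numbers of barcodes stand in the legends. Gcg with Ppy and Gcg with Sst are sparse beyond the limits, whereas Sst with Ppy continues the dense Sst only cloud upwards.

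The hormones themselves differ in the sequence before their RefSeq transcription start. They are shown because the classes were chosen by these 3 genes; capitals mark TGACGTCA, the cyclic AMP response element, in Sst, and TAAT or ATTA, the core bound by homeodomain factors such as Isl1, in Gcg, both searched on both strands. The sequences are from RefSeq on GRCm38.p6, on the minus strand, read 5′ to 3′. Sst is chr16:23890874-23890903, 30 bases around its element, Ppy is chr11:102101320-102101569 and Gcg is chr2:62483654-62483903, both the 250 bases before the start. The start of Sst is that of RefSeq, and the 30 bases lie inside the Sst gene of GENCODE, which begins further upstream.
Sst: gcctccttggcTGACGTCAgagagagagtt
Ppy: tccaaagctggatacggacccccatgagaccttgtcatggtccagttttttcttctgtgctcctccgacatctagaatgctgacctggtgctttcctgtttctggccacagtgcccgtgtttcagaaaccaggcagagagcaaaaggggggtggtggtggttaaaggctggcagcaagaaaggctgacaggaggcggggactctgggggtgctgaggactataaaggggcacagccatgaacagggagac
Gcg: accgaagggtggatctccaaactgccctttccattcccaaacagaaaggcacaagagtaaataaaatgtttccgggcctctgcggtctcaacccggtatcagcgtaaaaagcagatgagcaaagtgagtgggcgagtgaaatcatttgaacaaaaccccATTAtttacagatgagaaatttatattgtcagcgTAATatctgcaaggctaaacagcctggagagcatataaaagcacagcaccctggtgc
The 250 bases before the RefSeq start of Sst held 1 TGACGTCA, which 508 of 32851 promoter windows of that length hold (1.55%), and those before Ppy and Gcg held none. TAAT stood once before Sst, 2 times before Gcg and 0 times before Ppy, and 54.9% of all windows hold it. The motifs are letter matches and say nothing of what binds there. In GRCm38 the Ppy gene lies at chr11:102099930-102101319 and the Pyy gene at chr11:102106676-102107832, with Gcg at chr2:62474530-62483650 and Sst at chr16:23889573-23890958.

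Sst with Ppy barcodes had Pyy and Iapp, peptides that the rule did not use, at shares close to those of Sst only. Of those it used, Sst had a median of 11.7% of UMIs in Sst with Ppy and 13.0% in Sst only, and Ppy 7.12% in Sst with Ppy and 2.05% in Sst only. Pyy, the Ppy relative, had a median of 8.71% in Sst with Ppy and 8.76% in Sst only. Iapp, amylin, had 4.40% in Sst with Ppy and 4.61% in Sst only. Gcg had a median of 0.10% in Sst with Ppy. Sst was the higher of the 2 hormones in 368 of the 439 barcodes (83.8%).

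In these barcodes Ppy ran through the 5% limit without a gap. Among the 1172 barcodes with Sst at 5% and neither Gcg nor insulin, Ppy lay under 0.5% in 161, from 4% to under 5% in 103, from 5% to under 6% in 109, from 6% to under 8% in 167 and at 15% or more in 13. Around the limit, over all combinations, 183 members had their second hormone from 5% to under 6%, and 191 nonmembers from 4% to under 5%, with median UMIs of 8157 and 8067. Over the 1172 barcodes, which share 1 library, Spearman's rho was -0.24 between the Sst and Ppy shares, 0.02 between the Ppy and Pyy shares and 0.06 between the Ppy share and the UMI number, given as a description. Shares of the same total are not independent of each other.

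Gcg barcodes had another shape. Of the 2005 with Gcg at 5% and neither Sst nor insulin, 1470 (73.3%) held Ppy under 0.5%, 28 held it from 4% to under 5%, 17 from 5% to under 6% and 34 at 20% or more. Most glucagon barcodes thus carried hardly any Ppy, and the 154 with both spread widely. Gcg had a median of 19.0% in Gcg with Ppy and 35.2% in Gcg only, and Ppy 11.2% in Gcg with Ppy and 0.09% in Gcg only. Ppy made up from 11.9% to 85.7% of the sum of Gcg and Ppy, with a median of 39.2%, and Gcg was the higher in 94 of the 154 (61.0%).

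**Figure D2:**
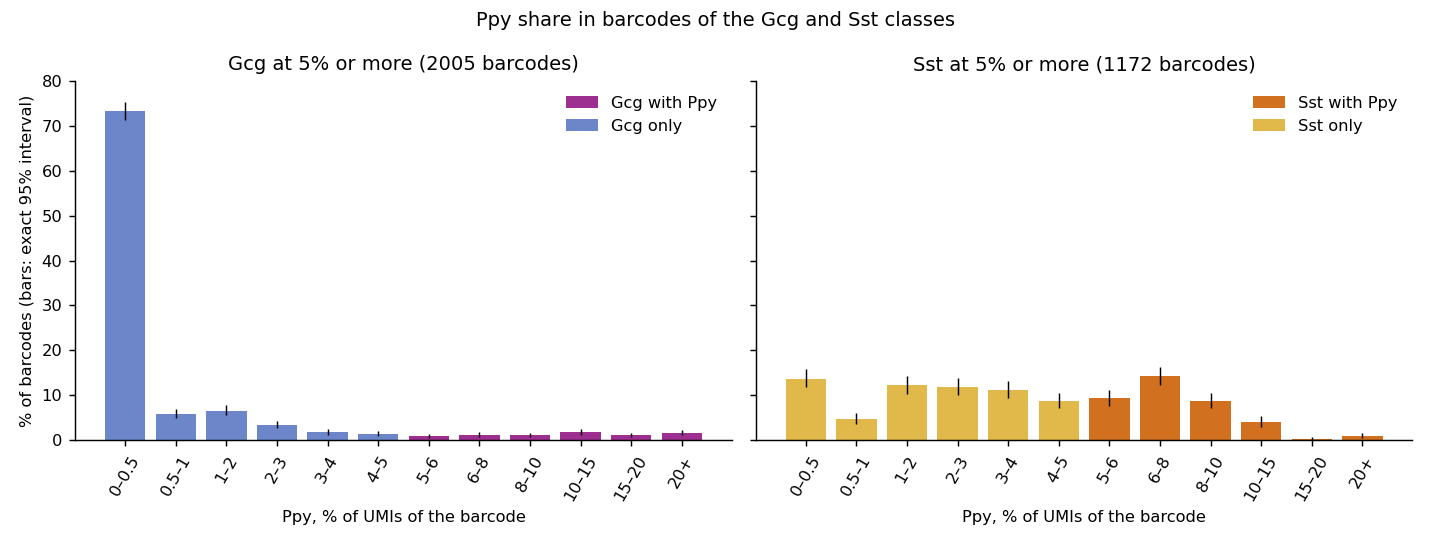
Percent of barcodes in each range of the Ppy share, for barcodes with Gcg at 5% or more without Sst or insulin (left) and with Sst at 5% or more without Gcg or insulin (right), with exact 95% intervals. The Gcg barcodes pile up under 0.5% Ppy (73.3%), whereas the Sst barcodes run through the 5% limit with 8.79% just under and 9.30% just over it.

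Pyy, which the rule did not use, was common in all 3 pair classes. It reached 5% of UMIs in 388 of 439 Sst with Ppy barcodes (88.4%), 109 of 154 Gcg with Ppy (70.8%) and 39 of 71 Gcg with Sst (54.9%). In single-hormone barcodes the shares were 95.7% of Ppy only, 84.2% of Sst only and 2.81% of Gcg only. Gcg barcodes with a second hormone therefore had Pyy at 5% far more often than Gcg only barcodes did. Within the 154 Gcg with Ppy barcodes, rho between the Ppy part of Gcg plus Ppy and the Pyy share was 0.64.

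The UMI numbers of the pair classes differed. Sst with Ppy had a median of 7474 UMIs, close to the 7190 of Sst only and below the 12210.5 of Ppy only, and 12 of 439 (2.73%, interval 1.42% to 4.73%) reached the sum of those medians, 19400.5. Gcg with Ppy had a median of 11472, against 9573 in Gcg only and 12210.5 in Ppy only, and 30 of 154 (19.5%, 13.5% to 26.6%) reached the sum of 21783.5. Gcg with Sst had a median of 16724, against 9573 in Gcg only and 7190 in Sst only, which equals their sum of 16763 at a ratio of 1.00, and 35 of 71 (49.3%) reached it. Over all members the median was 8494.5, against 9372 in barcodes with 1 hormone.

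The doublet marks followed the same order. Scrublet, which scores barcodes against simulated doublets of the library, marked 8 of 439 Sst with Ppy (1.82%), 27 of 154 Gcg with Ppy (17.5%) and 45 of 71 Gcg with Sst (63.4%). It marked 0.819% of Sst only, 3.84% of Gcg only and 4.67% of Ppy only. It also marked 13 of 33 members with insulin and 10 of 13 with Gcg, Sst and Ppy. Scrublet does not see pairs of like cells, and its score reads hormone counts, as the rule does.

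The library mixed Xist and Y-linked transcripts, which gave a measure that used no hormone. Among barcodes with a UMI of either kind, 7 of 274 Sst with Ppy (2.55%, interval 1.03% to 5.19%), 16 of 114 Gcg with Ppy (14.0%, 8.24% to 21.8%) and 23 of 59 Gcg with Sst (39.0%) held both kinds. In single-hormone barcodes the share was 4.68% for Gcg only, 1.08% for Sst only and 2.08% for Ppy only. Barcodes with more UMIs show both kinds more easily. Barcodes were therefore thinned to 3000 UMIs outside the hormones of the rule, and those with fewer were left out. After thinning, 2 of 185 Sst with Ppy (1.08%, 0.131% to 3.85%), 4 of 76 Gcg with Ppy (5.26%, 1.45% to 12.9%) and 2 of 41 Gcg with Sst (4.88%, 0.596% to 16.5%) held both, against 8 of 959 Gcg only (0.834%), 0 of 323 Sst only, with an upper limit of 1.14%, and 1 of 183 Ppy only (0.546%). At this matched depth outside the hormones, no order between Gcg with Ppy and Gcg with Sst was detectable. Gcg with Ppy split by UMI number: of barcodes over 17225 UMIs, the 90th percentile of single-hormone barcodes, 14 of 45 held both kinds, and of those up to it 2 of 69, against 37 of 102 and 24 of 1202 in Gcg only over and up to the same number. Free RNA and droplets with cells of the same sex also bear on these shares, and their part was not tested.

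**Figure D3:**
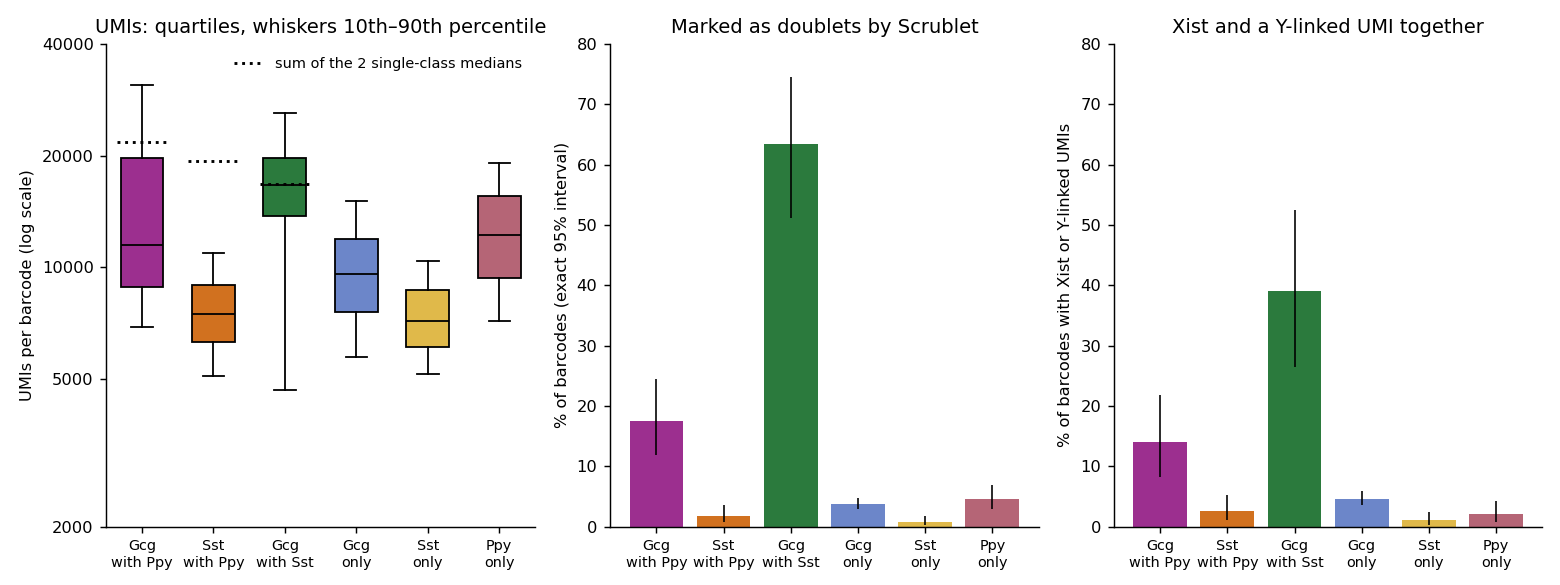
Left, UMIs per barcode in the 3 pair classes and the 3 single-hormone classes, with quartile boxes, whiskers at the 10th and 90th percentiles and dotted lines at the sum of the 2 single-class medians. Middle and right, percent marked by Scrublet and percent with Xist and Y-linked UMIs together, with exact 95% intervals; Sst with Ppy lies at 1.82% and 2.55% and Gcg with Sst at 63.4% and 39.0%.

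Free RNA, taken from barcodes with 1 to 100 UMIs, held all 4 hormones. Its UMIs were 16.7% Gcg, 2.73% Sst, 6.88% Ppy and 9.66% insulin, with 6.55% Pyy. Sst with Ppy barcodes held 0.02 Gcg UMIs per Ppy UMI, whereas free RNA held 2.43. The same ratio was 1.24 in Gcg with Ppy, 8.34 in Gcg with Sst and 1.51 in members with Gcg, Sst and Ppy. The part of free RNA in the pairs was not tested.

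Placed among single-hormone barcodes by all genes but the hormones of the rule, Sst with Ppy fell with Sst only. In a space of 30 principal components of 2000 variable genes, 430 of 439 had a majority of Sst only among their 15 nearest single-hormone barcodes. With Pyy and Iapp left out as well, 425 did. Along the line from the mean of Sst only, set at 0, to that of Ppy only, set at 1, their median position was 0.03, and 56 (12.8%) lay in the middle, between 0.25 and 0.75, against 66 of 733 Sst only and 46 of 514 Ppy only. The class was thus close to Sst only in this space too.

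Gcg with Ppy barcodes lay between their single classes. The nearest barcodes were mostly Gcg only for 113 of 154 and mostly Ppy only for 39. With Pyy and Iapp left out these were 129 and 24. Their median position between Gcg only at 0 and Ppy only at 1 was 0.40, with 95 (61.7%) in the middle, 45 near Gcg only and 14 near Ppy only. In Gcg only 16.2% and in Ppy only 9.92% lay in the middle. Position and the Ppy part of Gcg plus Ppy had a rho of 0.55 over the 154, and the Ppy part and the UMI number one of 0.14.

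Gcg with Sst barcodes mostly lay in the middle of their line. Their median position between Gcg only and Sst only was 0.54, and 66 of 71 (93.0%) lay in the middle, against 5.29% of Gcg only and 1.77% of Sst only. The 71 fell into separate ranges of UMI number: 58 had more than 12467 UMIs, 1 had between 9199 and 12467, 0 had between 7130 and 9199, and 12 had fewer, with a median of 3139. Of these 12, 4 had a sex-linked UMI and 0 held both kinds. Among the 1922 barcodes with Gcg at 5% and neither Ppy nor insulin, Sst lay under 0.5% in 1774. Sst lay from 3% to under 4% in 22 and from 4% to under 5% in 26. It lay from 5% to under 6% in 21 and from 6% to under 8% in 31. The limit thus left some barcodes with Sst close under it in Gcg only.

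**Figure D4:**
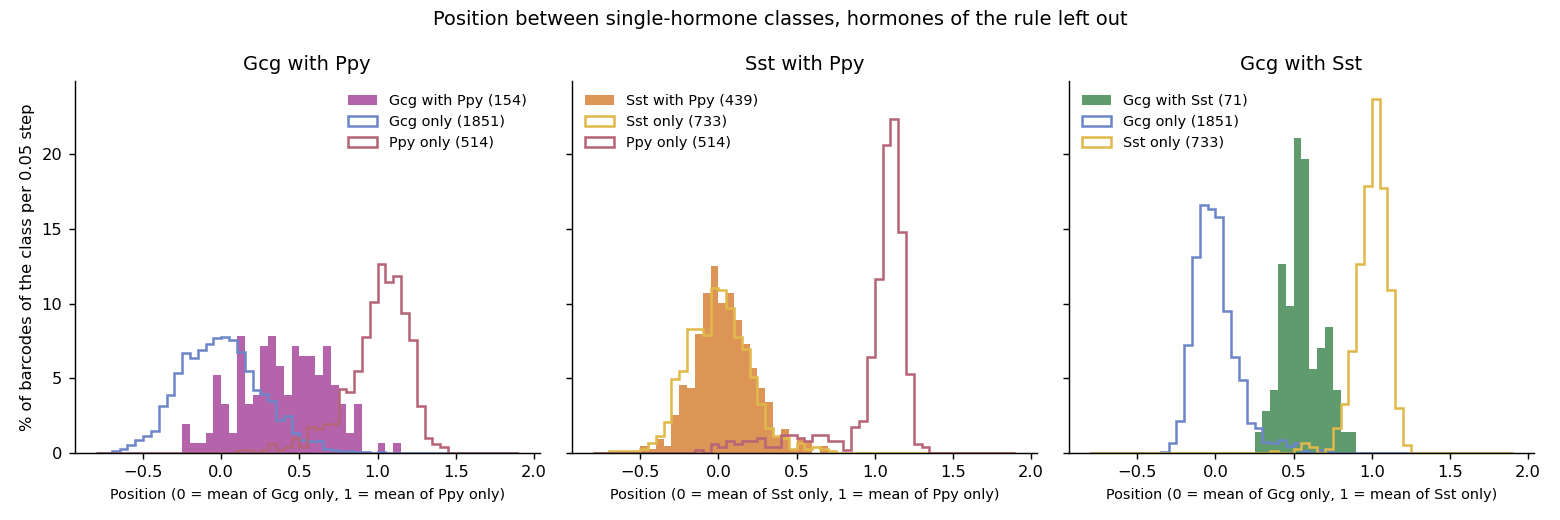
Position of each barcode between the means of the single-hormone classes of its pair, in principal components computed without Gcg, Sst, Ppy, Ins1 and Ins2; filled histograms show the pair class, lines the single classes, as percent of barcodes per 0.05 step. The medians are 0.40 for Gcg with Ppy, 0.03 for Sst with Ppy and 0.54 for Gcg with Sst.

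Gene levels were then compared between each pair class and its single classes as CPM, UMIs summed over a class and scaled to a common total of UMIs outside the 5 hormone genes. A gene was called at 2-fold or more with a counting interval excluding equal levels, among genes at 5 CPM or more in 1 class. Since the classes were cut from the same counts in 1 library, all of these values are descriptions. The 3′ kit counts molecules and not bases, and levels are compared here between classes for 1 gene at a time.

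Sst with Ppy and Sst only were nearly alike. Of 10502 genes 48 were higher in Sst with Ppy (0.457%) and 66 lower (0.628%), with a median log2 ratio over all genes of -0.02, and with CPM of all UMIs 31 were higher and 73 lower. With the expression minimum at 20 CPM, 5 genes were called. Of the delta cell list, 1 of 9 measured genes was higher, 0 were lower and the median was 0.00, and of the gamma cell list 0 of 7 were called, with a median of -0.17. The islet transcription factor list had 0 of 14 called with a median of -0.07.

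Hhex, a delta cell factor, Rbp4 and Pyy were each within 2-fold of Sst only. Hhex had 162 CPM in Sst with Ppy and 171 CPM in Sst only (log2 ratio -0.07, interval -0.24 to 0.09). Rbp4, a retinol carrier abundant in delta cells, had 14190 CPM in Sst with Ppy and 12262 CPM in Sst only (0.21, 0.19 to 0.23). Pyy had 121598 CPM in Sst with Ppy and 113525 CPM in Sst only (0.10, 0.09 to 0.11). None of these 3 was called.

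A few genes stood apart from Sst only. Dlk1, a Notch-related membrane protein, had 53.6 CPM in Sst with Ppy and 24.9 CPM in Sst only (log2 1.10, 0.75 to 1.47), with 13.2% of its UMIs in 1 barcode. In barcodes with Xist and no Y-linked UMIs Dlk1 was at -0.18. Cela1, an elastase, had 455 CPM in Sst with Ppy and 258 CPM in Sst only (0.82, 0.70 to 0.93). Cpb2, a carboxypeptidase, had 68.5 CPM in Sst with Ppy and 40.1 CPM in Sst only (0.77). Dlk1 was the only 1 of the 4 highest ratios to pass 2-fold among genes at 50 CPM and 20 UMIs or more. The fourth, Ppp1r17, a phosphatase inhibitor, had 137 CPM in Sst with Ppy and 90.1 CPM in Sst only (0.61).

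These 4 were higher than in Ppy only as well, and over 10710 genes 24 were 2-fold or more above both single classes (0.224%) and 9 below both (0.084%). The lowest ratios among genes at 50 CPM or more were those of Ttr and Fabp5, and neither was called. Ttr, transthyretin, had 443 CPM in Sst with Ppy and 773 CPM in Sst only (log2 -0.80). Fabp5, a fatty acid binding protein, had 91.6 CPM in Sst with Ppy and 149 CPM in Sst only (-0.70). Of 4 measured islet peptide genes outside the rule 1 was called higher in Sst with Ppy, Npy, neuropeptide Y, at 18.1 CPM in Sst with Ppy and 5.75 CPM in Sst only (log2 1.63, 0.95 to 2.38). A single barcode held 42 of its 51 UMIs in Sst with Ppy, and Npy was at -0.65 without barcodes of high UMI number and at -1.87 in barcodes with Xist and no Y-linked UMIs; it was chosen after its values were seen.

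Some of these genes went with the Ppy share on both sides of the limit. Over the bins of Ppy from under 0.5%, 0.5% to 1%, 1% to 2%, 2% to 5%, 5% to 8% and 8% to 15%, Tspan8, a tetraspanin, had 404, 376, 511, 618, 689 and 740 CPM. Ttr ran the other way, with 1772, 764, 543, 432, 370 and 370 CPM in the same bins. Cela1, in contrast, showed no order below the limit, at 263, 160, 268 and 267 CPM, and had 425 and 542 CPM above it. Rbp4 lay between 11244 and 15384 CPM in these bins, and their median UMIs between 7087 and 7842.5.

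The 13 barcodes with Sst and 15% or more Ppy stood apart from the other 426. They had a median of 20091 UMIs, Scrublet marked 5 of 13, and 5 had a majority of Ppy only neighbours. They held 274 of the 1249 Ttr UMIs of Sst with Ppy, at 1495 CPM, which was above each of the bins from 0.5% to under 15% Ppy. Tspan8 was at 840 CPM in them and Hhex at 109 CPM.

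Against Ppy only, Sst with Ppy differed widely. Of 10420 genes 1045 were higher in Sst with Ppy (10%) and 271 lower (2.6%), at a median log2 ratio of 0.31 over all genes. TMM scaling moved all ratios by -0.32 and gave 630 higher and 452 lower, and CPM of all UMIs moved them by 0.27 and gave 1704 and 172. Of the 9 measured delta cell genes 7 were higher (median 3.29), and of 12 alpha cell genes 9 were lower (-1.79). Of the 8 gamma cell genes 3 were higher and 3 lower.

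Hhex was among the 10 highest ratios of genes at 50 CPM or more. It had 162 CPM in Sst with Ppy and 9.27 CPM in Ppy only (log2 4.10, 3.66 to 4.63). Ly6h, a surface protein of the Ly6 family, had 416 CPM in Sst with Ppy and 12.1 CPM in Ppy only (5.08), and Spock3, a matrix proteoglycan, 69.2 CPM in Sst with Ppy and 2.78 CPM in Ppy only (4.53). Of 8 beta cell genes 3 were higher and 4 lower in Sst with Ppy (median -0.38). Iapp had 59686 CPM in Sst with Ppy and 12307 CPM in Ppy only (2.28), and Pdx1, a homeodomain factor of beta and delta cells, 188 CPM in Sst with Ppy and 58.2 CPM in Ppy only (1.69).

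Of 14 measured islet transcription factors 6 were higher and 0 lower in Sst with Ppy than in Ppy only (median 0.86). Rfx6, a factor of endocrine differentiation, had 57.9 CPM in Sst with Ppy and 16.2 CPM in Ppy only (log2 1.82). Mlxipl, the carbohydrate response factor, had 102 CPM in Sst with Ppy and 29.9 CPM in Ppy only (1.76). Progenitor and immature genes had 6 of 12 higher and 1 lower (median 0.73), among them Neurog3, the factor that starts endocrine differentiation. Neurog3 had 105 CPM in Sst with Ppy and 18.6 CPM in Ppy only (2.49, 2.15 to 2.88), and Insm1, a zinc finger factor, 233 CPM in Sst with Ppy and 82.3 CPM in Ppy only. Against Sst only, 0 of 12 progenitor and immature genes were called in Sst with Ppy (median -0.09). Neurog3 was detected in 26.0% of thinned Sst with Ppy and 28.3% of thinned Sst only barcodes.

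Genes of alpha cells were low in Sst with Ppy. Ttr had 443 CPM in Sst with Ppy and 4203 CPM in Ppy only (log2 -3.24), and Irx2 6.39 CPM in Sst with Ppy and 30.1 CPM in Ppy only (-2.17, -3.04 to -1.52). Both were called lower, and at a hormone limit of 10% Irx2 was at -0.77, short of the call.

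Detection of Hhex in single barcodes showed the same split. In barcodes thinned to 3000 UMIs outside the hormones of the rule, Hhex was detected in 39.7% of Sst with Ppy (55.4% unthinned), 35.0% of Sst only (56.5%) and 2.21% of Ppy only (4.28%). Insulin only barcodes, a class that should lack Hhex, had it in 1 of 190 when thinned (0.526%) and in 8 of 205 (3.90%) unthinned, at a median of 19828 UMIs. Irx2 was detected in 1.68% of thinned Sst with Ppy (4.10% unthinned), 2.26% of Sst only (3.68%) and 7.65% of Ppy only (17.3%), against 1.05% of insulin only (7.32%). The Irx2 shares of Sst with Ppy and Sst only were thus within the interval of this background, 0.128% to 3.75% when thinned.

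Gcg with Ppy held alpha cell genes at or below the level of Gcg only and several genes of Ppy only above it. Against Gcg only, 114 of 10670 genes were higher in Gcg with Ppy (1.07%) and 313 lower (2.93%), at a median of -0.17 over all genes, and TMM scaling moved all ratios by 0.14 and gave 166 higher and 194 lower. Of 13 alpha cell genes 0 were higher and 3 lower (median -0.83), and of 9 gamma cell genes 2 were higher and 1 lower (0.17). Of 7 delta cell genes 1 was higher, and of 14 islet transcription factors 0 were called (-0.33).

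Named alpha cell factors were below the level of Gcg only. Irx1, an Iroquois homeodomain factor, had 107 CPM in Gcg with Ppy and 234 CPM in Gcg only (log2 -1.11, -1.36 to -0.89). It was called lower, and with TMM scaling it was at -0.98, short of 2-fold. Irx2, of the same family, had 138 CPM in Gcg with Ppy and 212 CPM in Gcg only (-0.61). Pou3f4, an alpha cell POU factor, had 22.7 CPM in Gcg with Ppy and 65.1 CPM in Gcg only (-1.48), and Ttr 17578 CPM in Gcg with Ppy and 31253 CPM in Gcg only (-0.83).

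Of the genes higher than in Gcg only, those named here had still higher levels in Ppy only. Pyy had 142522 CPM in Gcg with Ppy and 17174 CPM in Gcg only (log2 3.05, 3.04 to 3.06), with 287511 CPM in Ppy only. Tspan8 had 509 CPM in Gcg with Ppy and 103 CPM in Gcg only (2.30), with 1027 CPM in Ppy only. Folr1, a folate receptor, had 309 CPM in Gcg with Ppy and 83.7 CPM in Gcg only (1.89), and Clu, clusterin, 332 CPM in Gcg with Ppy and 95.5 CPM in Gcg only (1.80). Cd9, a tetraspanin, had 178 CPM in Gcg with Ppy and 84.3 CPM in Gcg only (1.08).

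For a further 3 genes the call rested on barcodes with many UMIs. Spp1, osteopontin, had 104 CPM in Gcg with Ppy and 27.5 CPM in Gcg only (log2 1.93). Pcsk1, a convertase that cuts prohormones, had 17.4 CPM in Gcg with Ppy and 3.10 CPM in Gcg only (2.50), and Scg2, a secretogranin, 2632 CPM in Gcg with Ppy and 1283 CPM in Gcg only (1.04). Without barcodes over 17225 UMIs Spp1 was at 0.69, Pcsk1 at 0.98 and Scg2 at 0.89, all short of the call. Hhex, the delta cell factor, was called higher at 16.7 CPM in Gcg with Ppy and 6.37 CPM in Gcg only (1.43), and was at 0.15 without them.

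Of 10 measured receptor genes 1 was higher and 0 lower. It was Chrm3, the M3 muscarinic receptor, at 8.01 CPM in Gcg with Ppy and 0.50 CPM in Gcg only (log2 3.89, 2.47 to 5.69), from 12 UMIs in 10 of the 154 barcodes, and without barcodes marked by Scrublet it fell short of the expression minimum. The 108 Gcg with Ppy barcodes up to 17225 UMIs had a median of 9669.5 UMIs, and Scrublet marked 7 of them. Irx1 in these 108 was at 114 CPM, Irx2 at 159 CPM, Pyy at 118603 CPM and Hhex at 2.90 CPM. Summed over the class, Irx1, Irx2 and Pyy thus had these levels without the high-UMI barcodes, and Hhex was not above Gcg only. These sums do not show whether the genes shared single barcodes.

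Against Ppy only, the alpha cell genes were higher in Gcg with Ppy. Of 10271 genes 559 were higher (5.44%) and 96 lower (0.935%), at a median of 0.25, and TMM scaling moved all ratios by -0.27 and gave 276 higher and 241 lower. Of 13 alpha cell genes 9 were higher and 0 lower (median 2.19), and of 8 gamma cell genes 1 was higher and 1 lower.

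Irx1 and Irx2 of the alpha cell list and Slc30a8 of the beta cell list were called higher than in Ppy only. Irx1 had 107 CPM in Gcg with Ppy and 7.88 CPM in Ppy only (log2 3.74, 3.23 to 4.35). Irx2 had 138 CPM in Gcg with Ppy and 30.1 CPM in Ppy only (2.19). Slc30a8, the zinc transporter of secretory granules, had 600 CPM in Gcg with Ppy and 56.1 CPM in Ppy only (3.42). The prohormone processing and granule list, in contrast, had 0 of 13 higher and 1 lower (median 0.06).

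An amino acid transporter and a kinase of the alpha cell list and a receptor were among the others. Slc7a2, which carries cationic amino acids, had 308 CPM in Gcg with Ppy and 65.6 CPM in Ppy only (log2 2.23). Wnk3, a kinase that regulates ion transport, had 282 CPM in Gcg with Ppy and 42.4 CPM in Ppy only (2.73), and Oxtr, the oxytocin receptor, 24.0 CPM in Gcg with Ppy and 2.78 CPM in Ppy only (3.04, 2.14 to 4.19). Over 10806 genes, 21 were 2-fold or more above both single classes (0.194%) and 22 were 2-fold or more below both (0.204%). Genes outside the range of the single classes by less than 2-fold were not counted.

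Genes lower than in Ppy only included several that were higher than in Gcg only. Pcsk1 had 17.4 CPM in Gcg with Ppy and 58.9 CPM in Ppy only (log2 -1.71), and Spp1 104 CPM in Gcg with Ppy and 325 CPM in Ppy only (-1.63). Tspan8 had 509 CPM in Gcg with Ppy and 1027 CPM in Ppy only (-1.01). Of 9 beta cell genes 1 was higher and 2 were lower. Hadh, a mitochondrial enzyme of fatty acid oxidation, had 76.1 CPM in Gcg with Ppy and 209 CPM in Ppy only (-1.45), and Pdx1 22.7 CPM in Gcg with Ppy and 58.2 CPM in Ppy only (-1.32).

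Among barcodes with Gcg, levels went with the Ppy share. Over the bins under 0.5%, 0.5% to 1%, 1% to 2%, 2% to 5%, 5% to 10%, 10% to 20% and 20% or more Ppy, Irx1 had 250.3, 213, 184, 168, 161, 88.9 and 71.4 CPM. Pyy had 8296, 26880, 45193, 53911, 86678, 152503 and 196301 CPM in the same bins. Irx1 was thus lower and Pyy higher at each step, on both sides of the limit. Slc30a8 had 1055, 1002, 878, 846, 859, 491 and 458 CPM, lower at each step but 1. The 39 Gcg with Ppy barcodes with mostly Ppy only neighbours had Irx1 at 77.0 CPM and Slc30a8 at 345 CPM, and the 113 with mostly Gcg only neighbours had Irx1 at 122 CPM and Slc30a8 at 715 CPM. Neighbours were found from genes that may include Irx1 and Slc30a8, so these levels are not separate from the split.

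Gcg with Sst held alpha and delta cell genes side by side. Against Gcg only, 495 of 10969 genes were higher in Gcg with Sst (4.51%) and 261 lower (2.38%), and with CPM of all UMIs, which moved all ratios by 0.20, 620 were higher and 112 lower. Of 9 delta cell genes 7 were higher (median 3.46), against a median of -0.01 over all genes, and of 13 alpha cell genes 7 were lower (-1.11). Scrublet marked 63.4% of these barcodes, and the part of droplets with 2 cells in these levels was not tested.

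Beside the 7 delta cell genes, 4 progenitor and immature, 3 receptor, 3 prohormone processing and 3 beta cell list genes were higher. Hhex had 107 CPM in Gcg with Sst and 6.37 CPM in Gcg only (log2 4.07, 3.62 to 4.53). Ptprz1, a receptor phosphatase, had 84.6 CPM in Gcg with Sst and 4.02 CPM in Gcg only (4.38), and Cd24a, a surface glycoprotein, 305 CPM in Gcg with Sst and 16.9 CPM in Gcg only (4.17). Iapp had 33643 CPM in Gcg with Sst and 3277 CPM in Gcg only (3.36), Rbp4 8979 CPM in Gcg with Sst and 3039 CPM in Gcg only (1.56), and Pdx1 96.0 CPM in Gcg with Sst and 13.1 CPM in Gcg only (2.88).

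Irx1 was called lower than in Gcg only, at 86.8 CPM in Gcg with Sst and 234 CPM in Gcg only (log2 -1.41).

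Against Sst only the alpha cell genes were higher. Of 10857 genes 423 were higher in Gcg with Sst (3.9%) and 175 lower (1.61%), and with CPM of all UMIs, which moved all ratios by -0.22, 235 were higher and 356 lower. Of 13 alpha cell genes 10 were higher (median 3.71), against a median of 0.08 over all genes, and of 9 delta cell genes 0 were higher and 1 lower (-0.34). Over 11233 genes 23 were 2-fold or more above both single classes (0.205%) and 31 below both (0.276%). Cdkn1a, an inhibitor of cell division, was among those above both, at 68.6 CPM in Gcg with Sst, 32.6 CPM in Gcg only and 21.3 CPM in Sst only.

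Irx1 and Ttr of the alpha cell list were far above Sst only, as were Slc30a8 of the beta cell list and Edn3. Irx1 had 86.8 CPM in Gcg with Sst and 3.20 CPM in Sst only (log2 4.69, 3.95 to 5.67). Ttr had 14485 CPM in Gcg with Sst and 773 CPM in Sst only (4.23), and Slc30a8 530 CPM in Gcg with Sst and 21.5 CPM in Sst only (4.61). Edn3, endothelin 3, had 144 CPM in Gcg with Sst and 2.77 CPM in Sst only (5.60). Delta and beta cell factors were lower or not called. Hhex had 107 CPM in Gcg with Sst and 171 CPM in Sst only (-0.65), which was not called, and Pdx1 96.0 CPM in Gcg with Sst and 204 CPM in Sst only (-1.07), which was.

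Before thinning, Irx2 and Hhex were found in the same barcode most often in Gcg with Sst among the classes. Unthinned, 32 of 71 Gcg with Sst barcodes (45.1%) held a UMI of both, as did 4 of 13 with Gcg, Sst and Ppy (30.8%), 3 of 33 with insulin (9.09%), 10 of 154 Gcg with Ppy (6.49%) and 7 of 439 Sst with Ppy (1.59%), against 32 of 1851 Gcg only (1.73%), 17 of 733 Sst only (2.32%) and 1 of 205 insulin only (0.488%). Thinning to 3000 UMIs outside the hormones of the rule left out 7 of the 71. The share was then 3 of 64 Gcg with Sst (4.69%, interval 0.977% to 13.1%). It was 5 of 1744 Gcg only (0.287%, 0.093% to 0.668%) and 4 of 709 Sst only (0.564%, 0.154% to 1.44%). In the other combinations it was 2 of 416 Sst with Ppy, 0 of 148 Gcg with Ppy and 0 of 13 with Gcg, Sst and Ppy. The interval of Sst only overlapped that of Gcg with Sst. At that depth each factor alone was found in 15.6% (Irx2) and 18.8% (Hhex) of Gcg with Sst.

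**Figure D5:**
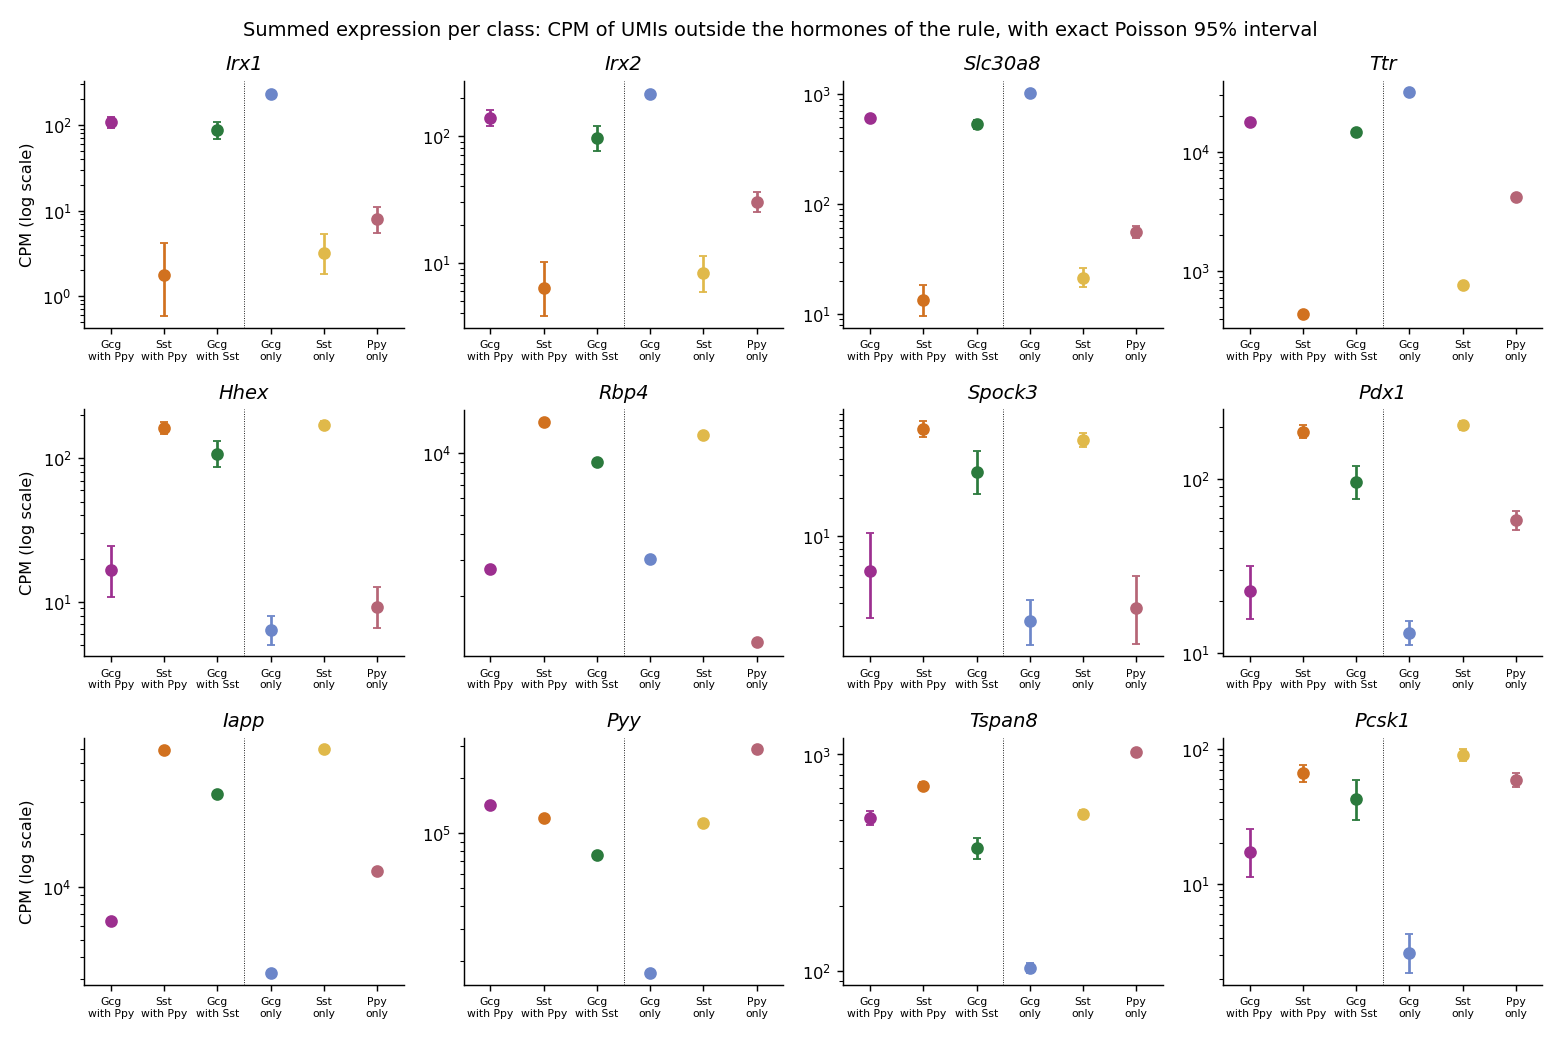
CPM of UMIs outside the hormones of the rule for 12 genes, on log axes, in the 3 pair classes (left of the dotted line) and the 3 single-hormone classes, with exact Poisson 95% intervals; the other genes discussed follow in the text. Sst with Ppy lies beside Sst only for Hhex, Rbp4 and Iapp, and Gcg with Ppy lies between Gcg only and Ppy only for Irx1, Slc30a8, Pyy and Tspan8.

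Some lists outside hormone identity had no gene called. The oxidative phosphorylation list (14 genes) and the unfolded protein response list (16 genes) had 0 called in all 6 comparisons, and the exocytosis list had at most 1 of 15. For the prohormone processing list, Gcg with Ppy against Gcg only had 2 higher and 1 lower of 14, Sst with Ppy against Sst only had 0 of 13 called, and Gcg with Sst against Gcg only had 3 higher of 14. The beta cell list had 0 of 8 higher and 1 lower in Sst with Ppy against Sst only, and 0 of 8 called in Gcg with Ppy against Gcg only. The cell cycle list had 4 of 9 higher in Sst with Ppy than in Sst only (median 0.83), but barcodes with UMIs of 3 or more of its 12 genes were 5 of 439 Sst with Ppy (1.14%) and 8 of 733 Sst only (1.09%). Against Ppy only, Sst with Ppy had 7 of 9 cell cycle genes higher (1.61), 4 of 10 receptor genes higher and 2 lower, and 3 of 10 interferon and antigen presentation genes higher. Over all 10420 genes of that comparison 10% were higher and 2.6% lower. In Ppy only, 2 of 514 barcodes (0.389%) had UMIs of 3 or more of the cell cycle genes.

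Markers of other cells differed between some classes. Of 9 acinar genes 0 were higher and 4 lower in Gcg with Ppy than in Gcg only (median -0.88), 1 was higher and 8 lower in Gcg with Sst than in Gcg only (-2.61), and 0 of 8 were called in Sst with Ppy against Sst only (0.26). A single Gcg only barcode held 2800 of the 4628 acinar UMIs of its class, and Gcg only was at 388 CPM for the summed list with it and 153 CPM without it, against 160 CPM in Gcg with Ppy and 239 CPM in Gcg with Sst. An acinar UMI was found in 31.2% of Gcg with Ppy, 58.3% of Sst with Ppy and 47.9% of Gcg with Sst barcodes, against 12.9% of Gcg only, 46.0% of Sst only and 24.1% of Ppy only. With that barcode, the summed level of Gcg only was thus above both Gcg pair classes. In each class the barcode with the most acinar UMIs was then left out. Gcg only, at 153 CPM, then lay between Gcg with Ppy at 117 CPM and Gcg with Sst at 219 CPM. Most acinar UMIs of the Sst classes were of Cela1, with 1281 of 1452 in Sst with Ppy and 1212 of 1466 in Sst only. In Gcg with Sst, Ctrb1, Prss2 and Try4 had 4, 4 and 5 of the 209 acinar UMIs. Both measured stellate and fibroblast genes were lower in Sst with Ppy than in Sst only, and 79 of the 200 UMIs of that list in Sst only came from 1 barcode. Of 6 ductal genes 3 were higher in Gcg with Sst than in Gcg only (0.75). The part of other cells in these results was not tested.

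The immediate early list had 0 called of 11 in Gcg with Ppy against Gcg only and against Ppy only, and 0 of 10 in Sst with Ppy against Sst only. Against Ppy only, 3 of 11 were lower in Sst with Ppy. In Gcg with Sst, 1 of 11 was lower against Gcg only and 3 of 11 were higher against Sst only. Median mitochondrial shares were 0.57% in Gcg with Ppy, 0.68% in Sst with Ppy and 0.68% in Gcg with Sst, against 0.60% in Gcg only, 0.73% in Sst only and 0.51% in Ppy only.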

How the data were processed

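The deposited files hold whole-number UMI counts per gene and barcode, 1 matrix per library, unfiltered and without normalization. GRCm38.p6 is the genome the submitters' processing notes name, beside the tools STAR 2.7.3a with STARsolo, and Seurat 4.3.0.1; the counting settings are not given in the sources used here. From the deposited counts, barcodes were filtered and classed by the stated rule (Python 3.11.15, scipy 1.17.1). Scrublet ran through scanpy 1.11.5 at an expected rate of 0.05, and marked barcodes were kept. Counts were summed per class, 1 was added before the log2 ratio, and intervals are exact conditional Poisson (ratios), exact Poisson (CPM) and Clopper-Pearson (shares), at 95%. Thinning used 3000 UMIs outside the hormones of the rule, and barcodes with fewer were left out of it. Alternatives were CPM of all UMIs, TMM (edgeR 4.0.16), other limits and filters, and leaving out marked or high-UMI barcodes. The script was tested on simulated data. Genes named are members of the fixed lists with large or contrasting values and in each comparison the 10 highest and the 10 lowest ratios at 50 CPM and 20 UMIs, or more, in 1 class; some genes of the lists are not reported here. The members and lists were chosen with earlier results of these data known, and the splits by UMI number, neighbours and Ppy share after seeing the values. Gene positions are from GENCODE vM21, matched for 46488 of 46984 feature IDs without their version. Strand use in counting is not given in the sources used here; Tspan8, Spp1, Cd9, Slc7a2, Wnk3, Neurog3, Cdkn1a and Mlxipl overlap exons of another gene.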

Additional observations from a re-analysis of the deposited data

How the results depend on the processing

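With 1 library per genotype no replicate could be left out. No paired analysis was possible because each genotype has 1 library. The share of control barcodes with 2 or more hormones was 32.5% at a limit of 2%, 2.58% at 10%, 15.2% without barcodes marked by Scrublet, 15.6% without barcodes over the 90th percentile of UMIs and 13.8% in barcodes with Xist and no Y-linked UMIs, an alternative chosen after seeing the data. The share of members with Sst and Ppy was 22.9% at 10%, 71.0% without marked barcodes and 71.6% without high-UMI barcodes, and that with Gcg and Ppy 65.1% at 10% and 18.3% without high-UMI barcodes. The members' median UMIs were 11412 at 10% and 7944 without marked barcodes. Of genes called, those in Sst with Ppy against Sst only numbered 114, and 225 with no expression minimum, 5 at 20 CPM, 332 at a limit of 10%, and, as alternatives chosen after seeing the data, 221 in barcodes with Y-linked UMIs and no Xist and 232 in those with Xist and no Y-linked UMIs; fewer barcodes leave lower counts. At 20 CPM the other comparisons gave 102 (Gcg with Ppy against Gcg only), 240 (against Ppy only), 557 (Sst with Ppy against Ppy only), 318 (Gcg with Sst against Gcg only) and 235 (against Sst only) genes, of fewer tested. At a limit of 10% Sst with Ppy against Ppy only gave 766, Gcg with Sst against Gcg only 437 and against Sst only 326. In barcodes with Xist and no Y-linked UMIs, Sst with Ppy against Sst only turned in sign for Dlk1 (-0.18) and Npy (-1.87), the second also without high-UMI barcodes (-0.65), and at a limit of 10% Gcg with Sst against Sst only turned for Pcsk1 (0.71); the cause was not tested. Over 66 named genes in a comparison, each under 9 alternatives, 553 of 594 values kept direction and call, 31 lost the call and 6 gained it, and of 216 list medians 27 changed sign.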
